A study of Bos taurus with 10 samples.

Results

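The 46 genes described here encode the machinery of DNA replication, from the proteins that mark origins to the enzymes that supply nucleotides. They were chosen by symbol from general knowledge of the pathway, with earlier results of these data known. All 46 were found among the 20112 genes of the table. The data are RNA-seq of single bovine early blastocysts, 5 WT and 5 *SOX2* KO, and the comparison asks what the loss of SOX2, a transcription factor of pluripotent cells, did to the RNA of these genes. Both groups were injected as zygotes with mRNA of BE3, a cytosine base editor. *SOX2* KO embryos also received sgRNAs directing the editor to place premature stop codons in *SOX2*, so the WT embryos are an injected control and every embryo carried the editor. Embryos were produced in vitro, and the labels give their age as 7.0 days after fertilization, whereas the methods of the study place collection slightly later. No strain or sex is given, and an edited embryo may hold more than one genotype.

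Replication starts from origins bound by the origin recognition complex, which with CDC6 and CDT1 loads the MCM2-7 helicase. Kinases and firing factors then turn the loaded helicase into an active one, and DNA polymerases, the sliding clamp PCNA with its loader RFC, and the single-strand binding protein RPA copy the strands. Many of these genes are transcribed at the G1/S transition, so their RNA is high in proliferating cells such as those of a blastocyst.

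Values are normalized read counts, which are the reads of a gene divided by a size factor for the embryo. Embryos are named by their column of the table, nc1 to nc5 for WT and ko1 to ko5 for *SOX2* KO. The WT libraries held 2223670 to 5134855 recovered reads on genes and the *SOX2* KO libraries 2578284 to 4337342, a difference with an exact two-sided permutation p of 0.349. Reads of the 18S rRNA gene *RN18S1* made up 26.4% to 37.0% of a WT library and 32.5% to 44.95% of a *SOX2* KO library (exact two-sided permutation p = 0.0635). More genes were detected in *SOX2* KO embryos, 17987 to 19813 against 15919 to 18092 (exact two-sided permutation p = 0.0159). *SOX2* itself went from 78.2 ± 14.1 (SD, n = 5) to 56.6 ± 23.2, and its log2 fold change of -0.55 did not pass (limma, adjusted p = 0.167). A stop codon leaves the gene transcribed, so this level does not check the edit. The study itself genotyped the sequenced blastocysts, using part of the cDNA library of each.

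RNA of the replication genes was lower in *SOX2* KO than in WT embryos for 44 of the 46 genes, mostly by modest amounts. The mean in *SOX2* KO embryos was 51.8% to 125% of the WT mean, with a median of 74.03% over the genes. With limma, at a limit of 0.05 on the p adjusted after Benjamini and Hochberg, 8 of the 46 genes (17.4%) fell and 0 rose. Those that fell were *ORC1*, *GMNN*, *MCM6*, *MCM10*, *GINS1*, *RFC1*, *RPA2* and *TYMS*. Of all 20056 genes tested, 3.20% fell and 10.4% rose by the same rule. None of the 46 also passed the fold limit of the study (2 upwards, 0.5 downwards), which 1.16% of all genes passed downwards and 8.93% upwards. At an unadjusted p under 0.05, 23 replication genes were lower and 0 higher, whereas 8.37% of all genes were lower (19.9% of those with a mean of at least 100) and 4822 of the 20056 were higher.

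The median log2 fold change of the replication genes was -0.44, against 0.25 over all genes tested. All but 16 of them had a mean of at least 100, where genes in general were lower, and the median over the 4548 tested genes at that level was -0.11. Among those 4548 genes 8.16% fell, and 8 of the 30 replication genes of that level did. Where the mean was 10 to 100, 3.73% of 6786 genes fell, and none of the 16 replication genes there did. In 6 genes, *ORC1*, *ORC3*, *CDC6*, *MCM10*, *GINS1* and *RFC4*, every *SOX2* KO embryo lay below every WT embryo (13.0%), a pattern held by 2.76% of all genes. With a mean of at least 100, 4 of the 30 replication genes held it, against 6.77% of all genes at that level. Where the mean was 10 to 100, 2 of the 16 did, against 3.35%. In *ORC3* and *RFC4* the gap between the groups was less than a read, so these groups in effect met. Each library is a whole embryo, so fewer replicating cells and less RNA per cell cannot be told apart, and the p-values measure the spread between single embryos. The study reported fewer cells in *SOX2* KO blastocysts of the collection day, but similar total cell numbers in the early blastocysts it sequenced.

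**Figure D1:**
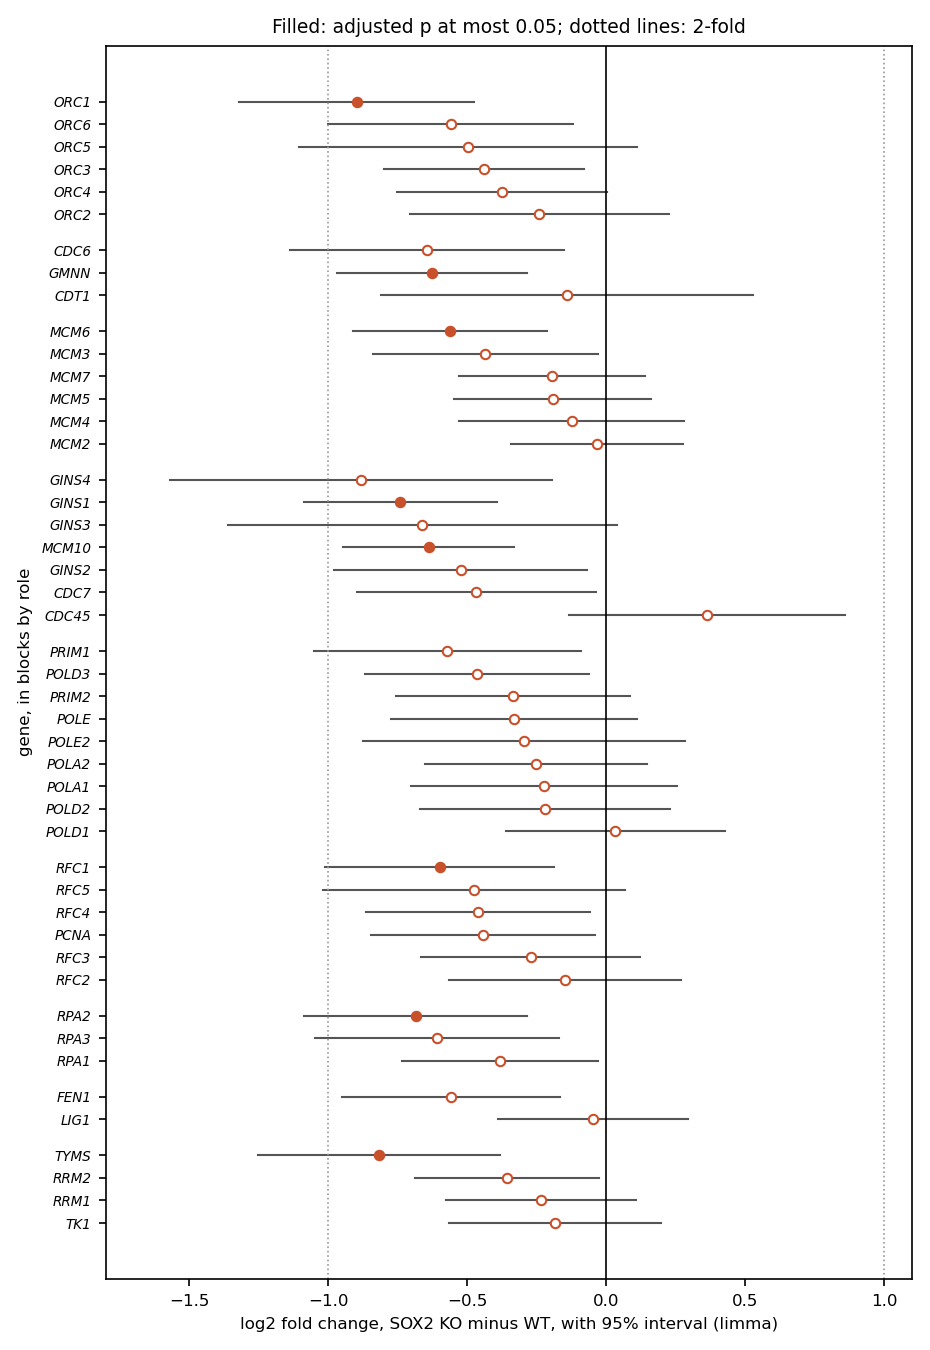
Log2 fold change (*SOX2* KO minus WT, x axis) of each of the 46 replication genes (y axis, grouped by role), with the 95% interval of the limma fit as a line and the genes that fell marked. Of the points, 44 lie left of 0, the intervals of 23 genes exclude 0, and all 46 intervals end below a 2-fold rise.

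The intervals bound what could have been missed. The 95% interval of the log2 fold change lay wholly below 0 in 23 genes, and in 34 of the 46 it excluded a 2-fold fall. All 46 intervals excluded a 2-fold rise. The gene with the fewest reads, *CDT1*, had 135 reads over the WT and 97 over the *SOX2* KO embryos, *GINS4* had 231 and 96, and no replication gene had under 11 reads in an embryo. For the median gene the SD over embryos, on the log2 scale, was 0.30 in WT and 0.31 in *SOX2* KO.

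Which genes passed changed with single embryos and with the *RN18S1* covariate. The number of replication genes that fell was 3 without ko5, 5 without nc2, nc4, ko1 or ko3 each, and 14 without nc3. The share of all genes that fell moved too. It was 1.65% without ko5, 1.89% to 2.08% without nc2, nc4, ko1 or ko3 each, and 4.03% without nc3. *ORC1*, *MCM10* and *GINS1* passed in all 10 fits that left out an embryo. *GMNN* and *TYMS* passed in all but the fit without ko5, whereas *MCM6* and *RPA2* passed in 4 and *RFC1* in 3. With the share of *RN18S1* in the reads as a covariate, 0 replication genes passed with limma, and 0.52% of all genes fell. In that fit 5 replication genes were lower at an unadjusted p under 0.05, and their median log2 fold change over the 46 was -0.31 (against 0.15 over all genes). With totals made equal after leaving out *RN18S1*, 8 genes passed, 7 of them among those above, and the median was -0.42. Without both nc2 and ko5, only *GINS1* passed, where 1.06% of all genes fell, and the median was -0.32. These last settings were chosen after the values were seen.

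Of the 46 genes, 38 had a negative log2 fold change in all 24 fits, and *CDC45* a positive one in all 24. The other 7 had both signs. *POLD1*, *MCM2* and *LIG1* did so under some scalings and left-out embryos, and *MCM4*, *PCNA*, *RFC2* and *RFC3* with the *RN18S1* covariate alone. The fits share embryos and are not independent, and those that changed only the filter repeat the fold changes found as deposited. Rescaling to equal totals took the median of all genes from 0.25 to 0.14, and quantile normalization took it to -0.02. Relative to the median of the genes at a mean of 100 or more, the median of all 46 replication genes lay at -0.33 as deposited. It lay at -0.33 with equal totals and -0.31 with quantile normalization. These values include the 16 replication genes of lower mean. The 30 at a mean of 100 or more had a median of -0.41 as deposited, against -0.11 for all genes at that level.

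**Figure D2:**
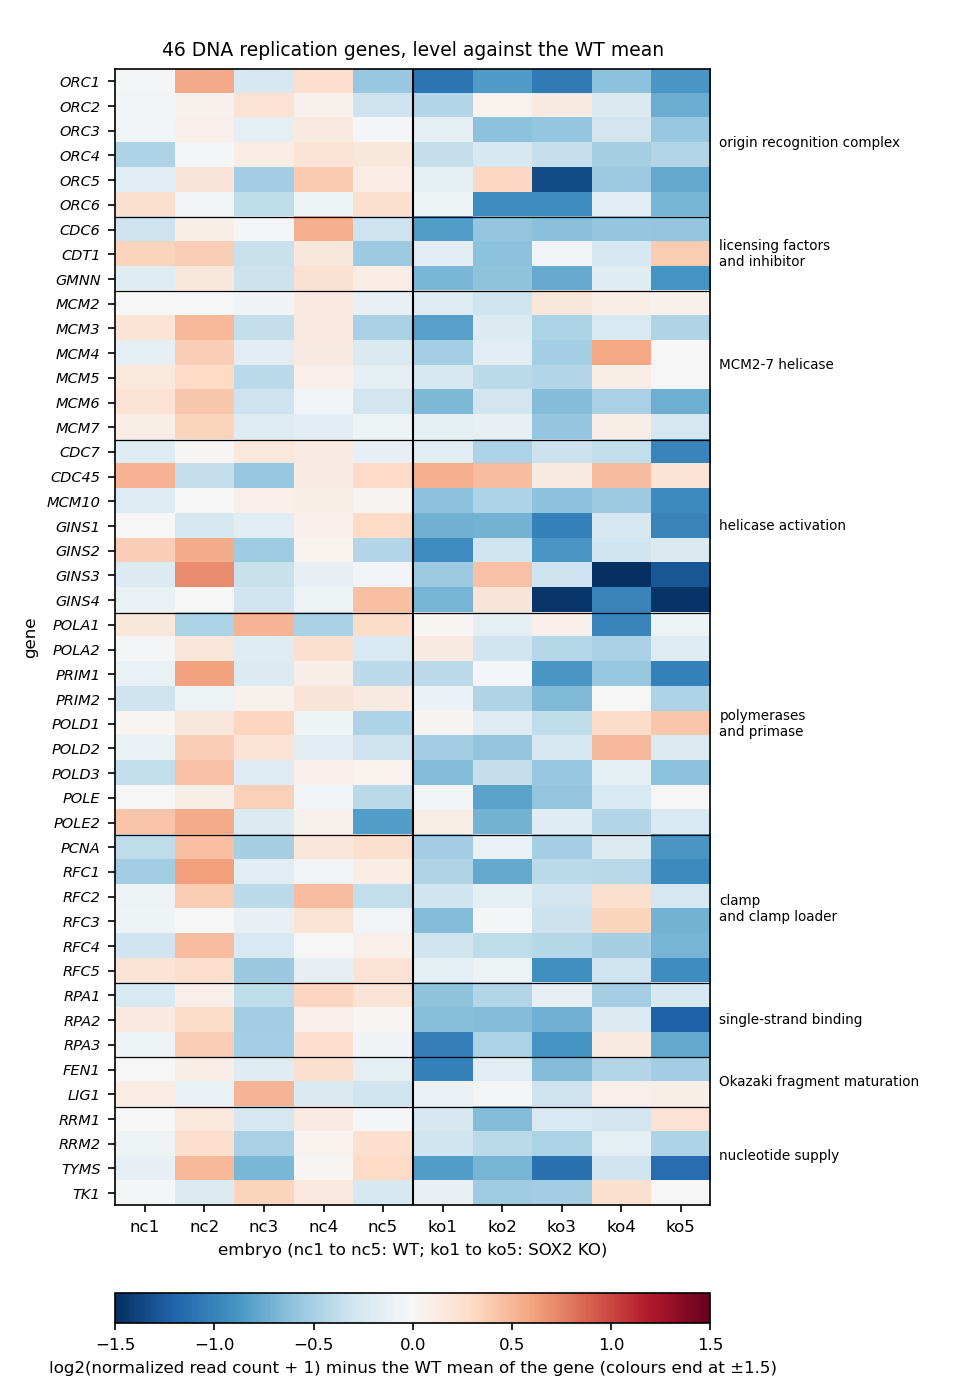
Heat map of the 46 replication genes (rows, grouped by role) in the 10 embryos (columns), coloured by log2(normalized read count + 1) minus the mean of the 5 WT embryos. The *SOX2* KO columns are mostly below the WT mean, least so in ko4, and nc2 stands highest among the WT columns.

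Embryo by embryo, the mean log2 value of the 46 genes was 7.25, 7.50, 7.11, 7.38 and 7.21 in nc1 to nc5. It was 6.89, 6.95, 6.76, 7.05 and 6.79 in ko1 to ko5. The groups did not overlap on this mean, though ko4 came close to nc3. The embryo nc2 was the highest WT embryo for 21 genes and nc3 the lowest for 22. Among *SOX2* KO embryos, ko4 was the highest for 17 genes and ko5 the lowest for 14. The number of genes below every WT embryo was 30 in ko3, 26 in ko5, 24 in ko1, 21 in ko2 and 18 in ko4. The share of *RN18S1* in the reads was 33.0%, 28.1%, 37.0%, 31.9% and 26.4% in nc1 to nc5. In ko1 to ko5 it was 36.8%, 34.6%, 39.6%, 32.5% and 44.95%. Its median was 31.9% in WT and 36.8% in *SOX2* KO embryos, so the share went partly with the groups. The part of this share in the difference was not tested beyond the covariate fit.

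The origin recognition complex, whose 6 subunits mark origins, had a median log2 fold change of -0.47, all 6 negative, and 1 gene that fell. This was *ORC1*, the subunit whose level cycles in many cells. *ORC1* was 175, 264, 150, 214 and 119 in nc1 to nc5. In ko1 to ko5 it was 82.4, 97.7, 84.9, 116 and 96.9. All *SOX2* KO embryos lay below all WT embryos, although ko4 came close to nc5. Its log2 fold change was -0.90 (SE 0.20, limma adjusted p = 0.00831), the most negative of the 46 genes. The other subunits did not pass, with log2 fold changes from -0.24 for *ORC2* to -0.56 for *ORC6*. *ORC3* was 111 to 137 in WT, against 80.6 to 111 in *SOX2* KO embryos, with a log2 fold change of -0.44 (limma, adjusted p = 0.0882). Its highest *SOX2* KO embryo, ko1 at 111.34, lay less than a read below nc3 at 111.37.

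*ORC2*, a core subunit that stays on chromatin, was 60.3, 65.3, 72.6, 65.3 and 50.2 in nc1 to nc5. In ko1 to ko5 it was 45.7, 64.7, 68.6, 53.4 and 36.9, inside the WT range in 3 embryos. The log2 ratio of *ORC1* to *ORC2* within an embryo was 1.497 ± 0.38 (SD, n = 5) in WT and 0.84 ± 0.42 in *SOX2* KO embryos. A ratio of 2 genes within an embryo is little changed by a single scaling factor for that embryo, but quantile normalization can change it. The difference of -0.66 had an exact two-sided permutation p of 0.0397, and 0.159 after adjustment over the 4 ratios compared, so it did not pass. The smallest p that 5 embryos against 5 allow is 0.00794.

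Of the licensing factors and their inhibitor, 1 of 3 fell, and that was the inhibitor. Geminin, the product of *GMNN*, binds CDT1 and blocks a second loading of the helicase. *GMNN* was 470, 602, 426, 626 and 574 in nc1 to nc5, and 331, 351, 315, 469 and 287 in ko1 to ko5. Only ko4 reached the WT range, above nc3 and just below nc1. *GMNN* fell by 0.63 on the log2 scale (SE 0.16, limma adjusted p = 0.0184).

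*CDT1*, the loading factor that geminin holds, was low in all embryos, at 29.0, 29.7, 17.9, 25.6 and 15.3 in nc1 to nc5. In ko1 to ko5 it was 20.0, 14.5, 22.1, 18.9 and 30.0, and the groups lay over each other. Its log2 fold change was -0.14, with a 95% interval of -0.81 to 0.53. The log2 ratio of *CDT1* to *GMNN* was -4.49 ± 0.43 (SD, n = 5) in WT and -4.01 ± 0.56 in *SOX2* KO embryos, a difference of 0.48 (exact two-sided permutation p = 0.214, adjusted 0.286). *CDC6*, the ATPase that recruits the helicase, was 43.5 to 80.0 in WT, against 30.1 to 36.1 in *SOX2* KO embryos. Its groups did not overlap, and its log2 fold change of -0.64 missed the limit (limma, adjusted p = 0.0715).

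The MCM2-7 genes encode the 6 subunits of one ring. Their median log2 fold change was -0.19 and 1 of 6 fell. *MCM6* was 410, 469, 284, 343 and 291 in nc1 to nc5, and 222, 292, 224, 251 and 212 in ko1 to ko5. The groups touched through ko2, which lay above nc3 and nc5. *MCM6* fell by 0.56 on the log2 scale (SE 0.17, limma adjusted p = 0.0319).

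*MCM2*, another subunit of the ring, was 240 to 288 in WT, against 210 to 291 in *SOX2* KO embryos. It had a log2 fold change of -0.03, with a 95% interval of -0.34 to 0.28 that excludes a 2-fold change either way, and its sign turned under some scalings. *MCM3* had a log2 fold change of -0.43 (limma, adjusted p = 0.128), *MCM5* and *MCM7* both -0.19, and *MCM4* -0.12. In *MCM4*, ko4 was the highest of all embryos at 548. All 6 intervals excluded a 2-fold fall. Whether *MCM6* differed from the other subunits in its change was not tested.

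The 7 genes of helicase activation had a median log2 fold change of -0.64, the most negative of the 9 roles, and 2 fell. *MCM10*, which acts as the helicase starts to unwind, was 299, 341, 360, 363 and 351 in nc1 to nc5. In ko1 to ko5 it was 223, 247, 223, 235 and 176. The highest *SOX2* KO embryo lay well below the lowest WT embryo. The log2 fold change was -0.64 (SE 0.15, limma adjusted p = 0.00945), and the mean went from 343 ± 25.9 to 221 ± 26.8 (SD, n = 5).

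*GINS1*, a subunit of the 4-protein GINS complex that joins the moving helicase, was 701, 590, 623, 735 and 857 in nc1 to nc5. In ko1 to ko5 it was 420, 424, 343, 587 and 347. The groups did not overlap, but ko4 at 587 stood just under nc2 at 590. The log2 fold change was -0.74 (SE 0.17, limma adjusted p = 0.00811), the smallest adjusted p of the 46 genes. The other GINS genes did not pass, with log2 fold changes of -0.52 for *GINS2*, -0.66 for *GINS3* and -0.88 for *GINS4*. *GINS4* was 29.8 to 50.8 in WT, against 12.7 to 42.3 in *SOX2* KO embryos, where ko2 alone lay inside the WT range (limma, adjusted p = 0.0758).

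*CDC45*, the third part of the active helicase beside MCM2-7 and GINS, was 31.8 to 68.7 in WT, against 52.3 to 70.1 in *SOX2* KO embryos. It had a log2 fold change of 0.36, with a 95% interval of -0.13 to 0.86 (limma, adjusted p = 0.296). *CDC7*, the kinase that phosphorylates the loaded helicase, had a log2 fold change of -0.47 (limma, adjusted p = 0.125). Its activating subunit *DBF4*, which is not among the 46, had -0.34 (limma, adjusted p = 0.356).

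**Figure D3:**
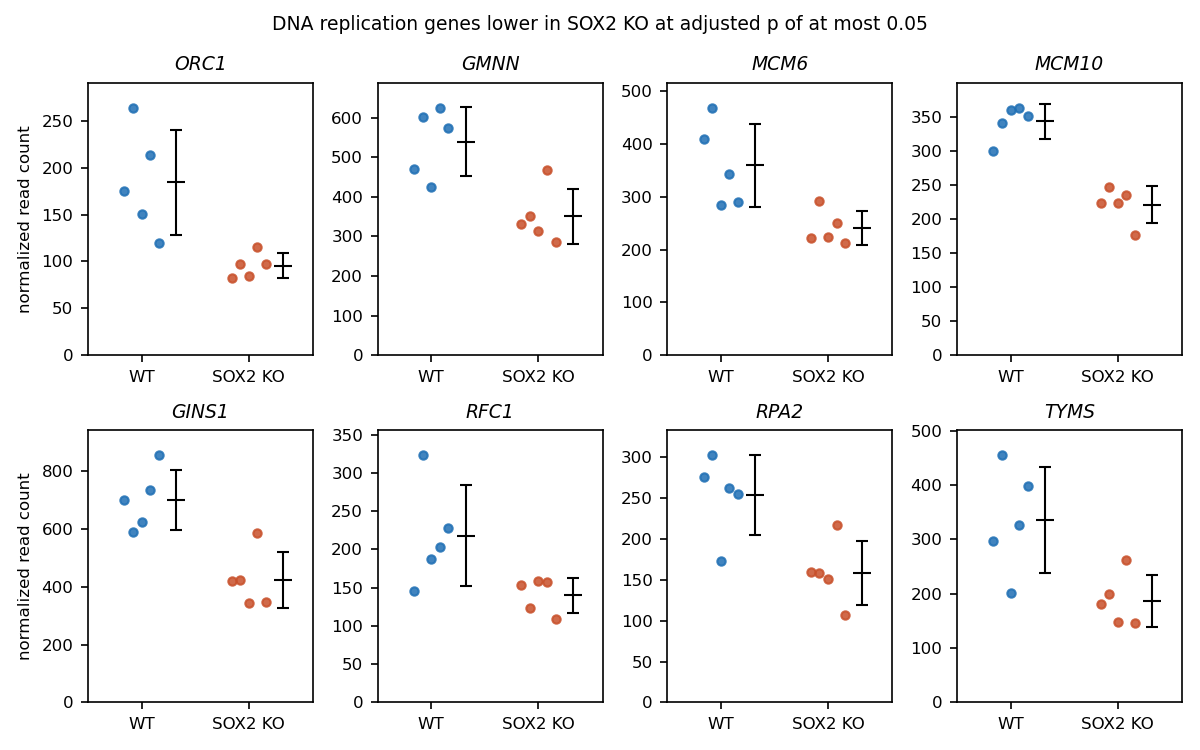
Normalized read counts (y axis, linear from 0) of the 8 replication genes that fell, 1 panel a gene, with 1 point an embryo and the mean and SD of each group beside the points. In *ORC1*, *MCM10* and *GINS1* the groups do not overlap, and in the other 5 panels at least 1 *SOX2* KO embryo reaches the WT range.

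None of the 9 polymerase and primase genes passed, and their median log2 fold change was -0.30. Primase and DNA polymerase alpha lay down the primers that start each strand. *PRIM1* had a log2 fold change of -0.57 (limma, adjusted p = 0.0952), *PRIM2* -0.33, *POLA2* -0.25 and *POLA1* -0.22. Of the lagging-strand polymerase delta, *POLD3* was at -0.47 and *POLD2* at -0.22. *POLD1*, its catalytic subunit, was 122 to 211 in WT, against 129 to 225 in *SOX2* KO embryos with a log2 fold change of 0.03, whose 95% interval ran from -0.36 to 0.43 and whose sign turned under other scalings. Of the leading-strand polymerase epsilon, *POLE* was at -0.33 and *POLE2* at -0.30. The accessory subunits outside the 46, *POLD4* at 0.43, *POLE3* at -0.34 and *POLE4* at -0.12, did not pass either. Of the 9 intervals, 8 excluded a 2-fold fall.

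The sliding clamp and its loader had a median log2 fold change of -0.45, and 1 of 6 genes fell. *RFC1*, the large subunit of the loader, was 146, 323, 188, 204 and 228 in nc1 to nc5. In ko1 to ko5 it was 154, 123, 158, 158 and 108. The highest WT embryo was nc2, and nc1 lay below 3 *SOX2* KO embryos. *RFC1* fell by 0.60 on the log2 scale (SE 0.20, limma adjusted p = 0.0487), and it passed in 5 of 13 alternative settings and in 3 of 10 fits without an embryo.

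The small subunits of the loader did not pass, with log2 fold changes from -0.15 for *RFC2* to -0.48 for *RFC5*. In *RFC4* every *SOX2* KO embryo, at 62.3 to 82.4, lay below every WT embryo, although the highest of them, ko1, came level with nc1 at 82.4 as rounded. *PCNA*, the clamp itself and a common marker of cycling cells, was 346 to 672 in WT, against 266 to 456 in *SOX2* KO embryos (log2 fold change -0.44, limma adjusted p = 0.121).

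All 3 subunits of RPA, which coats single-stranded DNA, had intervals below 0, and 1 fell. *RPA2* was 276, 303, 173, 262 and 255 in nc1 to nc5, and 159, 158, 151, 217 and 107 in ko1 to ko5. Only nc3 among WT embryos came down to the *SOX2* KO levels, between ko1 and ko4. Its log2 fold change was -0.68 (SE 0.19, limma adjusted p = 0.0248). *RPA3* at -0.61 (limma, adjusted p = 0.0577) and *RPA1* at -0.38 (limma, adjusted p = 0.125) did not pass. Okazaki fragments are trimmed by FEN1 and sealed by LIG1. *FEN1* was 115 to 155 in WT, against 64.6 to 118 in *SOX2* KO embryos, with a log2 fold change of -0.56 just outside the limit (limma, adjusted p = 0.0521). *LIG1* had a log2 fold change of -0.05 with a 95% interval of -0.39 to 0.29, and its sign turned under some scalings.

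Of the 4 genes for nucleotide supply, 1 fell. Thymidylate synthase, the product of *TYMS*, makes the thymidine nucleotide used only for DNA. *TYMS* was 296, 455, 201, 327 and 398 in nc1 to nc5, and 180, 199, 149, 263 and 145 in ko1 to ko5. Only ko4 exceeded the lowest WT embryo, nc3, and ko2 lay just under it. The log2 fold change was -0.82 (SE 0.21, limma adjusted p = 0.0162), and the mean went to 55.9% of WT. *TK1*, the salvage kinase for thymidine, had a log2 fold change of -0.18 (limma, adjusted p = 0.508).

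Ribonucleotide reductase, which makes all 4 DNA precursors, consists of RRM1 with RRM2, or with RRM2B outside S phase. *RRM1* was 364, 411, 304, 401 and 363 in nc1 to nc5, and 311, 234, 312, 302 and 428 in ko1 to ko5. *RRM2* was 760, 951, 568, 829 and 953 in nc1 to nc5, and 648, 603, 574, 720 and 580 in ko1 to ko5. Both overlapped between groups, through nc3 in each case and in *RRM1* also through ko5, the highest of all 10. The log2 fold changes were -0.23 for *RRM1* and -0.36 for *RRM2* (limma, adjusted p = 0.329 and 0.128). *RRM2B* was low, at 21.4, 16.3, 8.95, 28.0 and 21.8 in nc1 to nc5 and 17.8, 13.2, 17.4, 23.0 and 18.4 in ko1 to ko5, with a log2 fold change of -0.03.

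Neither ratio of these subunits passed. The log2 ratio of *RRM2* to *RRM1* was 1.12 ± 0.19 (SD, n = 5) in WT and 0.998 ± 0.36 in *SOX2* KO embryos, a difference of -0.12 (exact two-sided permutation p = 0.548, adjusted 0.548). It was 0.44 in ko5, the lowest of all embryos, and without ko5 the difference was 0.02. The log2 ratio of *RRM2* to *RRM2B* was 5.39 ± 0.43 (SD, n = 5) in WT and 5.06 ± 0.21 in *SOX2* KO embryos, a difference of -0.33 (exact two-sided permutation p = 0.190, adjusted 0.286).

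**Figure D4:**
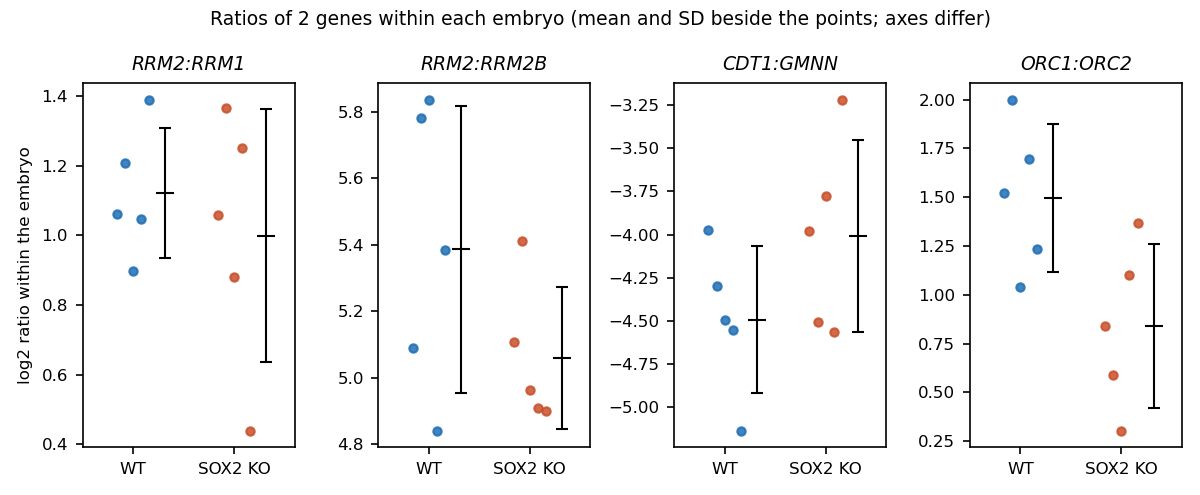
Log2 ratio of 2 genes within each embryo (y axis) for the 4 pairs compared, with 1 point an embryo and the mean and SD of each group beside the points; the y axes differ between panels. The *ORC1* to *ORC2* ratio is lower on average in *SOX2* KO embryos, at 0.84 against 1.497, with overlapping points, and none of the 4 differences passed after adjustment.

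Genes of the pathway outside the 46 were read from 4 further lists, of which 103 of 104 symbols were found. Of these 103 genes, 17 fell (16.5%) and 1 rose (0.97%), against 3.20% and 10.4% of all genes tested. Among all genes with a mean of at least 100, 8.16% fell and 6.62% rose. With the *RN18S1* share as a covariate 2 fell and 0 rose, and without both nc2 and ko5 the counts were 7 and 0. Of all genes, 0.52% fell with the covariate and 1.06% without both embryos. Of 34 fork and origin factors, 6 fell (17.6%). The checkpoint mediator *CLSPN* had a log2 fold change of -1.004, the histone chaperone *NASP* -0.75, topoisomerase *TOP2A* -0.68, and the fork protector *TIMELESS* -0.60. *ATAD5*, which unloads PCNA, was at -0.59, and *SLBP*, which binds histone mRNA, at -0.54. In *CLSPN*, WT embryos were at 102 to 187 and *SOX2* KO embryos at 56.8 to 73.1 (limma, adjusted p = 0.00307).

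Of 26 further nucleotide supply genes, 2 fell (7.69%), against 3.20% of all genes and 8.16% of those with a mean of at least 100. *DCK*, the salvage kinase for deoxycytidine, was 76.3, 132, 82.5, 133 and 106 in nc1 to nc5 and 32.3, 52.8, 17.4, 38.6 and 20.8 in ko1 to ko5. The groups stood apart, and the log2 fold change of -1.75 (SE 0.28, limma adjusted p = 0.000667) was larger in size than that of any of the 46 genes.

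Among 30 G1/S regulators, 5 fell (16.7%) and 1 rose (3.33%), against 3.20% and 10.4% of all genes. The cyclins *CCND2*, *CCNA2* and *CCNE1* had log2 fold changes of -1.68, -0.95 and -0.89, the ubiquitin ligase subunit *SKP2* -0.85, and *CDKN1B*, an inhibitor of cyclin-dependent kinases, -0.77. *CDK6*, a kinase of early G1, had 1.38 (limma, adjusted p = 0.0208), and ko4 at 16.4 stayed inside its WT range of 10.9 to 28.3. *CCNE2* at -0.02, *CDK2* at -0.30 and *CDKN1A* at 0.19 did not pass. None of the E2F genes, which encode factors that bind promoters of replication genes, passed, and their log2 fold changes ran from -0.67 for *E2F5* to 1.01 for *E2F2*. *E2F1* had -0.48 at means of 23.9 and 16.6, and *E2F2* rested on few reads, 21 over the WT and 30 over the *SOX2* KO embryos. Of 13 S-phase checkpoint genes, 4 fell (30.8%), namely *CHEK1* at -0.91, *FANCI* at -0.82, *WEE1* at -0.63 and *BRCA1* at -0.54.

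**Figure D5:**
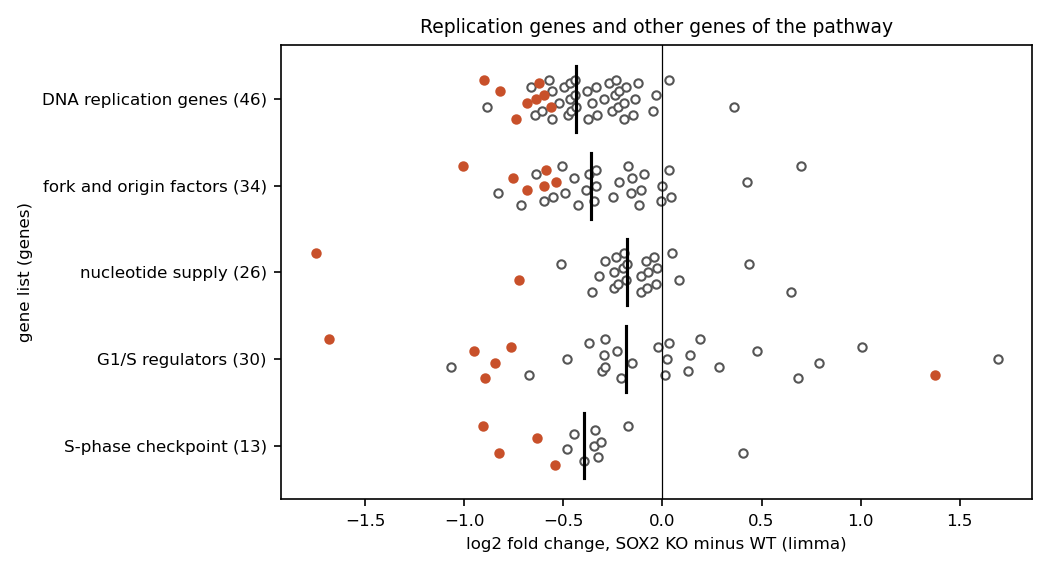
Log2 fold changes (*SOX2* KO minus WT) of the genes in the replication list and the 4 further pathway lists, 1 point a gene, with the genes that passed marked and the median of each list drawn. The replication genes have a median of -0.44, the fork and origin factors -0.36 and the checkpoint genes -0.39, whereas nucleotide supply and G1/S regulators both lie at -0.18.

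Some marker genes of the embryo's lineages differed between the same groups, where 3.20% of all genes tested fell and 10.4% rose. Of 14 trophectoderm markers 4 rose (28.6%) and 1 fell (7.14%), with a median log2 fold change of 0.55. Their summed levels were 27587 to 41233 in WT, against 39218 to 53411 in *SOX2* KO embryos. Most of this sum was the keratin genes *KRT8*, at means of 17496 and 22437, and *KRT18*, at 9100 and 15124. *KRT8* did not pass (limma, adjusted p = 0.352). Those that rose were *KRT18*, *KRT19*, *SFN* and *ASCL2*, the last on 4 reads over the WT and 30 over the *SOX2* KO embryos. The 1 that fell was *TFAP2C*, with a log2 fold change of -0.49 (limma, adjusted p = 0.0352). *CDX2*, *GATA2*, *GATA3*, *TFAP2A* and *TEAD4* did not pass. Of 12 epiblast markers 7 fell (58.3%), with a median of -0.69. Their summed levels were 3140 to 4005 in WT, against 2002 to 2574 in *SOX2* KO embryos. The pluripotency factor *NANOG* was 17.6 to 148 in WT, against 0 to 7.39 in *SOX2* KO embryos, with 0 reads in ko2. Of 11 primitive endoderm markers 5 fell (45.5%) and 1 rose (9.09%), with a median of -0.24. The 1 that rose was *APOA1*, with a log2 fold change of 1.71 (limma, adjusted p = 0.000272). Summed levels of the 11 markers were 9404 to 16737 in WT, against 5202 to 7968 in *SOX2* KO embryos. Most of that sum was *FN1*, the gene of the matrix protein fibronectin, at means of 10905 and 4424. The part of lineage composition in the lower RNA of replication genes was not tested.

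Markers of maternal cells were also compared. Of 10 markers of cumulus and granulosa cells 0 passed with limma, with 0 lower and 1 higher at an unadjusted p under 0.05. The log2 fold change was positive in 8 of the 10, with a median of 0.38, and their summed level was 40.0 to 163 in WT, against 37.0 to 470 in *SOX2* KO embryos. The sum lay above every WT embryo in ko1, ko2, ko3 and ko5, and most of it there was *CYP11A1*, a steroid synthesis enzyme named after its values were seen. *CYP11A1* was 16.8, 14.8, 29.8, 83.9 and 82.6 in nc1 to nc5, and 402, 331, 359, 1.64 and 228 in ko1 to ko5 (log2 fold change 1.78, limma adjusted p = 0.196). Of 11 oocyte markers 1 rose, with summed levels of 61.8 to 146 and 62.4 to 105. Of the granulosa genes, *FSHR* and *CYP19A1* had reads in all 10 embryos, and *LHCGR*, *AMH*, *HAS2* and *FOXL2* had 0 reads in at least 1 embryo of each group. The part of these cells was not tested.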

How the data were processed

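RNA-seq was made with Smart-seq2 from single early blastocysts, 5 WT and 5 *SOX2* KO. Per the labels, the authors used Trimmomatic, HISAT2, featureCounts and DESeq2 with the build ARS-UCD1.2. The annotation release, the strand setting and the handling of reads that map to several genes are not given in the sources used here, so genes that share reads with paralogs, pseudogenes or antisense genes are uncertain. The deposited values are a normalized signal, read counts of each embryo over its own DESeq2 size factor. Within 0.01 reads, all 201120 values (100%) fell on whole steps of their embryo, from which the reads were recovered. Reads carry no molecular identifiers, and 3 reads in an embryo was taken as the floor of detection. Columns were assigned to groups by name. The numbers of the *SOX2* KO columns differ in part from the replicate numbers of the labels, so no replicate was assigned.

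Differential expression was tested with limma 3.58.1 (eBayes with a mean trend, R 4.3.3) on log2(normalized read count + 1). The fit held the 20056 genes whose mean was 1 or more, all 10 embryos and no covariates, with Benjamini-Hochberg adjustment over all of them. Fold changes on this scale understate the change of low genes. DESeq2 (version 1.42.0) and edgeR (version 4.0.16) on recovered reads, pseudocounts of 0.1 and 5, 2 filters, 3 rescalings, quality weights and leaving out each embryo were alternatives. Ratios and library measures were compared by two-sided exact permutation over 252 arrangements (Python 3.11.15, numpy 2.4.6, pandas 2.3.3, scipy 1.17.1). The 46 genes and all lists were chosen with earlier results of these data known. All 46 could be named, other list genes where they passed or partner one of the 46, and values in every embryo were given for those that fell and those of the ratios. *DCK* was given in every embryo after its values were seen. Gene lengths, coordinates and sequences of this build were not used here, so levels are not compared between genes. A further nucleotide supply gene that passed is counted but not reported here by name.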

Additional observations from a re-analysis of the deposited data

Results flagged for a closer look

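Of 100 groups examined, the WT and the *SOX2* KO embryos for each of the 46 replication genes and the 4 ratios, 4 held an embryo far from the other 4 of its group by Dixon's criterion for 5 samples (0.71), where chance alone gives about 5. *CDC6*, the ATPase of helicase loading, was 30.1 in ko1 against 34.9 to 36.1 in the rest of its group, a small gap in a tight group. *GINS3*, a subunit of the GINS complex, was 81.6 in nc2 and 38.8 to 47.8 in the other WT embryos. *POLA1*, the catalytic subunit of DNA polymerase alpha, was 76.4 in ko4, while the rest of the *SOX2* KO group lay at 137 to 160. *RFC2*, a small subunit of the clamp loader, was 160 in ko4 and 109 to 121 in the others. So ko4 was far below its group for *POLA1* and far above it for *RFC2*.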

How the results depend on the processing

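The fall of the replication genes kept its direction in all alternatives run: 41 to 45 of the 46 genes were lower and their median log2 fold change stayed between -0.56 and -0.31. The number that passed did not hold. As deposited, 8 of the 46 genes fell, and the count was 3 to 14 when an embryo was left out, 15 with sample quality weights, 1 without both nc2 and ko5 and 0 with the *RN18S1* share as a covariate. With the fold limit, 0 passed as deposited, 0 to 1 with an embryo left out, and 1 each with equal totals, quality weights and edgeR. The cause of these changes was not tested.

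Of the other pathway genes 17 fell, with 8 to 25 when an embryo was left out, 10 with the median log ratio scaling, 7 without both nc2 and ko5 and 2 with the covariate. The 1 that rose became 0 to 2, 2 with quality weights, and 0 without both embryos or with the covariate. Of all genes 641 fell, with 325 to 1063 when an embryo was left out, 1004 with equal totals, 423 with the median log ratio, 1171 with quality weights, 210 without both and 104 with the covariate. The 2081 that rose became 882 to 3438, 910 with quantile normalization, 3730 with quality weights, 735 at a mean of at least 10, 418 without both and 149 with the covariate. With the fold limit 232 fell, with 176 to 266 when an embryo was left out, 447 with quantile normalization, 133 without both and 83 with the covariate. With that limit 1792 rose, with 754 to 3050 when an embryo was left out, 1002 at a pseudocount of 5, 629 with quantile normalization, 3229 with quality weights, 502 at a mean of at least 10, 359 without both and 137 with the covariate. Of all calls 76.5% were rises as deposited, against 62.2% with equal totals and 56.1% with quantile normalization. The median of all genes turned to -0.022 with quantile normalization and -0.036 at a mean of at least 10. The *RRM2* to *RRM2B* difference turned to 0.034 with quantile normalization, and that of *RRM2* to *RRM1* to 0.018 without ko5, within a range of -0.21 to 0.018. *RRM2* passed with quality weights and without nc3.

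No paired analysis was possible because the *SOX2* KO columns carry numbers that do not match the replicate numbers of the labels, so the replicate block was not run. DESeq2 and edgeR on recovered reads found 9 and 10 of the 46 genes lower. The covariate fit, the totals without *RN18S1* and the fit without both embryos were chosen after seeing the data. For *CDT1*, with few reads, the 95% interval of -0.81 to 0.53 left a fall or a rise of that size unresolved.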
